A study of Arabidopsis thaliana with 18 samples.

Results

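CML30, CML38 and CML42 encode calmodulin-like proteins, and IQD22 encodes a calmodulin-binding protein of the IQ-domain family. Each of the 4 genes is read by 1 probe set that the probe annotation assigns to a single gene. They are 4 of the 13356 genes that have such a probe set on these Affymetrix Arabidopsis arrays. The members were selected on measured values of these same data. In an earlier account of them their transcripts were called higher in darkness than in white light, CML38 in leaf blades and the other 3 in petioles.

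Calcium ions act as a second messenger in plant cells. Calmodulin and the calmodulin-like proteins bind calcium through EF-hand loops and change shape, which alters the proteins they touch. The IQ-domain proteins bind calmodulin through IQ motifs, and many of them sit on microtubules or in the nucleus. Leaves are known to use this system in their responses to touch, wounding, herbivores and low oxygen.

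The plants were wild-type Arabidopsis thaliana seedlings, raised on rockwool at 22 °C for 19 days in unbroken white light, a history that all groups share. Seedlings then received a far-red pulse followed by 2 h in the dark (FRD), 2 h in the dark alone (D), or 2 h more of white light (WL). Far-red light converts phytochrome to its inactive form. RNA came from petioles or blades of the third and the fourth rosette leaves, with 3 biological replicates in each of the 6 groups and 1 array per replicate. The labels do not name the accession of the plants or say how many seedlings were pooled.

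Every deposited value is a ratio: on each array a probe set stands relative to the median of the 3 WL arrays of its own tissue, so the WL arrays lie around 1 by construction. Ratios carry no level, so the abundance of a gene, its signal over background, and petiole against blade in WL could not be examined, and the tissue labels could not be checked against markers. In whole organs a change in the number of cells that express a gene cannot be told apart from a change in RNA per cell. Log2 ratios were fitted with limma over all 18 arrays, and a difference was called at a Benjamini-Hochberg adjusted p under 0.05 over 22746 probe sets. Each gene is taken here as chosen in the tissue named above, which the selection itself does not state. The choosing tissue is described below with no test, and tests are given for the other tissue, whose arrays are separate. These tests can count as independent of the choice only if that reading is right. Even then the spread of each gene is estimated from all 18 arrays, those of the choosing tissue included. Whether petioles and blades came from the same seedlings was not established. The small number of arrays limits the precision of the values.

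The array controls moved in some of the same samples. The 25S ribosomal RNA control stood at a log2 ratio of 0.97 ± 0.2 in blade D arrays and 0.34 ± 0.25 in blade FRD arrays, against -0.08 ± 0.22 in blade WL arrays (SD, n = 3). In petioles it stood at 0.15 ± 0.36 in FRD, 0.05 ± 0.26 in D and -0.05 ± 0.1 in WL arrays. The difference between the 3' and 5' actin controls, a sign of RNA integrity, was -0.51 ± 0.3 in blade D arrays, against 0.01 ± 0.01 in blade WL arrays. In petioles that difference was -0.35 ± 0.21 in D arrays, against 0.08 ± 0.6 in WL arrays. For GAPDH it was 0.09 ± 0.11 in blade D and 0.17 ± 0.29 in blade WL arrays, and -0.04 ± 0.21 and 0.09 ± 0.14 in petioles. For ubiquitin it was 0.16 ± 0.08 and 0.06 ± 0.05 in blades, and 0.06 ± 0.06 and -0.13 ± 0.2 in petioles. The 5S ribosomal RNA control was at -0.83 ± 2.19 in blade D and 0.17 ± 0.53 in blade WL arrays. In petioles it was at -1.97 ± 1.84 and 0.07 ± 0.34. The part of these shifts in the results below was not tested.

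**Figure D1:**
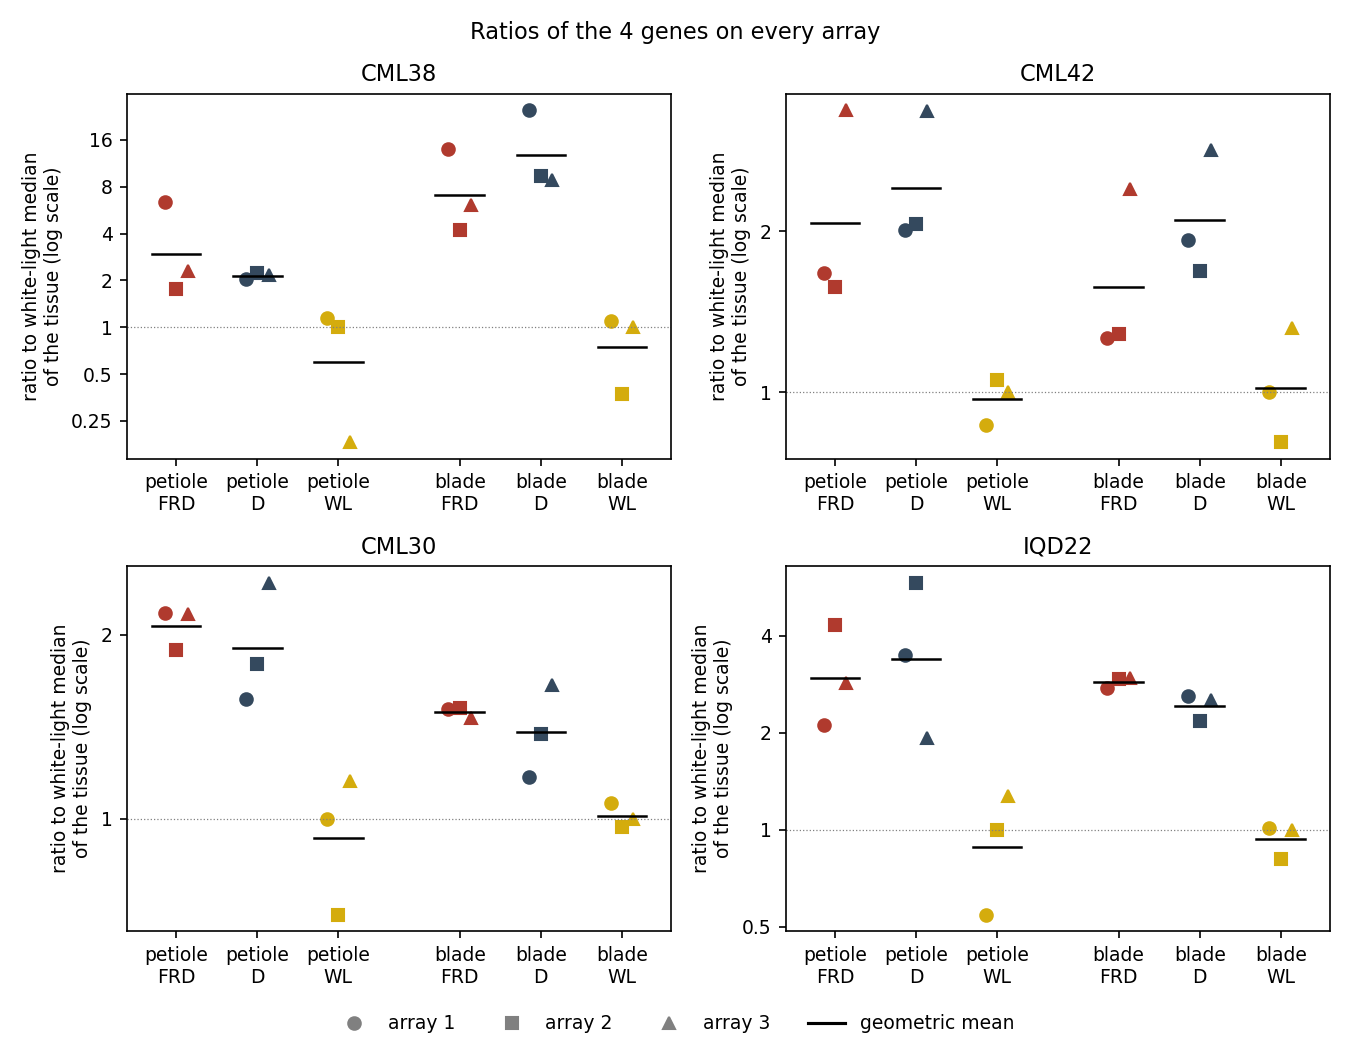
Ratio of each gene to the white-light median of its tissue (log axis) on all 18 arrays, with petiole groups on the left and blade groups on the right of each panel. Marker shapes give the array number and black bars the geometric mean of 3 arrays. CML38 reaches 24.8 in a blade D array, while the other 3 genes stay below 6 on every array.

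CML38 encodes an EF-hand protein known from Arabidopsis work on low oxygen and wounding. It had the widest range of the 4 genes. In blades its ratio was 13.96, 4.2 and 6.09 on the FRD arrays and 24.8, 9.4 and 8.86 on the D arrays, against 1.1, 0.374 and 1.0 on the WL arrays. All 6 blade arrays without light lay above all 3 WL arrays, and the FRD and D arrays overlapped each other. The fitted log2 change was 3.25 ± 0.73 for FRD against WL and 4.1 ± 0.73 for D against WL (SE of the fit). These are 9.55-fold and 17.1-fold changes. With a pseudocount added to the ratios, which shrinks every change and most where ratios are low, they were 2.53 and 3.32 log2 units. Among all probe sets tested, CML38 ranked 16 from the top for darkness in blades, the comparison on which it was chosen. FRD was 0.85 ± 0.73 log2 units below D for CML38 in blades. The blade D arrays are also those in which the 25S rRNA control was highest.

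Petioles are taken here as not used to choose CML38. CML38 stood there at 6.34, 1.76 and 2.31 in FRD and at 2.04, 2.23 and 2.16 in D, against 1.15, 1.0 and 0.183 in WL. Every petiole array without light was above every WL array. Non-overlap of this kind and in this direction was found for 13.5% of all probe sets for FRD against WL and for 13.9% for D against WL. The change was 2.31 ± 0.73 log2 units for FRD against WL (95% interval 0.74 to 3.89, limma adjusted p = 0.0717). For D against WL it was 1.85 ± 0.73 (interval 0.28 to 3.43, limma adjusted p = 0.177). Neither was called, in comparisons that called 4.44% and 3.45% of all probe sets as higher. A single low WL array carried much of both values: without petiole WL replicate 3, at 0.183, they were 1.46 and 1.0. With the pseudocount they were 1.52 and 1.11. The FRD against WL value was called once the replicate number was added to the fit as a block. That fit called 11.5% of all probe sets in either direction. After the pulse CML38 in petioles was 0.46 ± 0.73 above D (interval -1.11 to 2.04, limma adjusted p = 0.978). That value rests on 1 array, petiole FRD replicate 1 at 6.34, and was -0.089 without it. The response to darkness was 2.25 ± 1.04 log2 units smaller in petioles than in blades (log2 difference -2.25), which is given as a description because the blade value chose the gene.

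**Figure D2:**
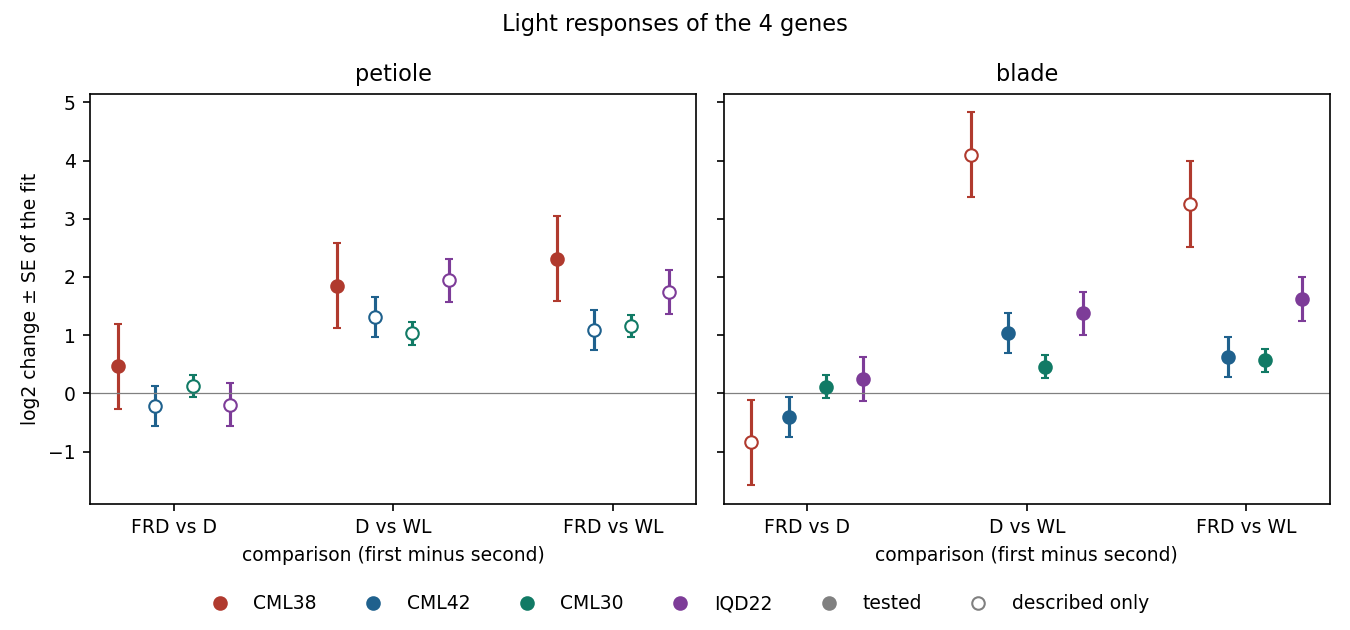
Log2 change of each gene in the 3 light comparisons, petioles on the left and blades on the right, with bars for the SE of the limma fit. Filled points were tested and open points are described only. In both tissues the 4 genes lie above 0 for D against WL and FRD against WL, and around 0 for FRD against D.

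IQD22 in blades was the one member to pass the test of the main fit in the tissue taken as not used to choose it. With the replicate number as a block, CML38, CML42 and CML30 also had values called in such a tissue. In blades its ratios were 2.74, 2.93 and 2.95 in FRD and 2.6, 2.18 and 2.52 in D, against 1.01, 0.811 and 1.0 in WL. The 3 groups did not overlap at all, and the order was FRD, D, WL. IQD22 rose by 1.62 ± 0.37 log2 units for FRD against WL in blades, a 3.07-fold change (limma adjusted p = 0.0127). It rose by 1.37 ± 0.37 for D against WL in blades, a 2.59-fold change (limma adjusted p = 0.0304). In the 2 comparisons 6.41% and 6.7% of all probe sets were called as higher. The FRD against WL call was lost without blade WL replicate 2 (limma adjusted p = 0.0505) and held without any other single array of the 6 compared. The D against WL call was lost whichever of the 6 arrays was left out, with adjusted p from 0.0594 to 0.0992 and a change of 1.27 to 1.45. Without single arrays, 7.17% to 9.44% of all probe sets were called for D against WL in either direction, against 11.2% with all arrays. With quantile normalization the changes were 1.48 and 1.21, and neither was called (limma adjusted p = 0.207 and 0.372). That setting called 0.822% and 0.703% of all probe sets in the 2 comparisons, where the main fit called 11.2% in each. Aligned 75th percentiles also ended the D against WL call (limma adjusted p = 0.0594). That setting put the median of all probe sets at -0.35 in this comparison.

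The step between FRD and D in blades was small for IQD22. It came to 0.25 ± 0.37 log2 units (95% interval -0.56 to 1.05) and was not called (limma adjusted p = 0.987), although no FRD array was as low as any D array. Such non-overlap with FRD higher was found for 5.34% of all probe sets. Petioles are the tissue taken to have chosen IQD22. IQD22 was there at 2.12, 4.31 and 2.85 in FRD and at 3.47, 5.84 and 1.93 in D, against 0.546, 1.0 and 1.27 in WL. Petiole arrays of FRD and D overlapped, and both lay above WL. The changes were 1.74 ± 0.37 for FRD against WL and 1.94 ± 0.37 for D against WL, or 3.35-fold and 3.83-fold. The SD of the log2 ratio of IQD22 in D was 0.8 in petioles and 0.14 in blades (n = 3 each), so the blade arrays varied less.

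CML42 is known in Arabidopsis for a part in trichome branching and in defence against herbivores. In petioles it stood at 1.67, 1.57 and 3.37 in FRD and at 2.01, 2.07 and 3.36 in D, against 0.869, 1.05 and 1.0 in WL. All petiole arrays without light were above WL, by 1.09 ± 0.34 log2 units for FRD and 1.31 ± 0.34 for D. The choice of the gene favoured the D value, and the FRD value shares its WL arrays. Blades are taken here as not used to choose CML42. CML42 stood there at 1.26, 1.28 and 2.41 in FRD and at 1.93, 1.69 and 2.84 in D, against 1.0, 0.807 and 1.32 in WL. The blade D arrays lay above the WL arrays, and the FRD arrays overlapped both. The change for D against WL was 1.04 ± 0.34 (95% interval 0.30 to 1.77) and was not called (limma adjusted p = 0.07). With array weights in the same fit this value was called (limma adjusted p = 0.0483). With the replicate number as a block it was called too (limma adjusted p = 0.00345), in a fit that called 14.8% of all probe sets. For FRD against WL in blades the change was 0.62 ± 0.34 (interval -0.11 to 1.36, limma adjusted p = 0.301). It was called with the block (limma adjusted p = 0.0418), beside 14.9% of all probe sets. FRD was 0.41 ± 0.34 log2 units below D (log2 change -0.41, interval -1.15 to 0.32, limma adjusted p = 0.926). Leaving out 1 array gave -0.72 to -0.19 for this value, 0.32 to 0.81 for FRD against WL and 0.82 to 1.22 for D against WL, with none called. With aligned 75th percentiles the changes against WL were 0.32 for FRD and 0.71 for D. The median of all probe sets in that setting was -0.33 and -0.35 in the same order.

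CML30 is a calmodulin-like protein that has been found in mitochondria. It had the narrowest spread of the 4 genes, with a residual SD of 0.23 log2 units, against 0.94 for CML38, 0.47 for IQD22 and 0.43 for CML42. The median over all probe sets was 0.33. In petioles CML30 was at 2.17, 1.89 and 2.17 in FRD and at 1.57, 1.79 and 2.44 in D, against 1.0, 0.697 and 1.15 in WL. FRD and D overlapped in petioles, above WL by 1.16 ± 0.19 and 1.03 ± 0.19 log2 units. In blades CML30 was at 1.51, 1.52 and 1.46 in FRD and at 1.17, 1.38 and 1.66 in D, against 1.06, 0.97 and 1.0 in WL. Blade arrays without light were all above WL, yet the changes of 0.57 ± 0.19 for FRD (95% interval 0.15 to 0.99, limma adjusted p = 0.0803) and 0.46 ± 0.19 for D (0.04 to 0.88, adjusted p = 0.165) were not called. With aligned 75th percentiles they were 0.26 and 0.12 (limma adjusted p = 0.393 and 0.703). That setting put the median of all probe sets at -0.33 and -0.35 in the same order, and called 20.4% and 22.1% of them. With the replicate number as a block the FRD value was called (limma adjusted p = 0.0452), beside 14.9% of all probe sets. The blade FRD and D arrays differed by 0.11 ± 0.19 (interval -0.31 to 0.53, limma adjusted p = 0.991). The darkness response of CML30 was 0.58 ± 0.27 log2 units larger in petioles than in blades, and that of FRD against WL was 0.59 ± 0.27 larger. Both differences are descriptions, since the petiole value chose the gene.

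Side by side, the 4 genes had larger values for darkness than for the pulse, a contrast that the choice of the genes favours and that was not tested. For D against WL the log2 changes ran from 1.03 to 1.94 in petioles and from 0.46 to 4.1 in blades. For FRD against D they ran from -0.22 to 0.46 in petioles and from -0.85 to 0.25 in blades. In the tissue taken as not used to choose each gene, 4 of 4 genes had D arrays wholly above WL arrays. Among all probe sets this was the case for 13.9% in petioles and 14.4% in blades. With FRD in place of D it held for 3 of 4, all but CML42, beside 13.5% and 14.2% of all probe sets. The 2 comparisons use the same WL arrays. Such counts are independent of the choice only if that reading of the tissues is right. None of the 4 tested values of FRD against D was called by limma, and 0 of the 4 had a p under 0.05 before adjustment, in comparisons that called 1.09% of all probe sets in petioles and 0.651% in blades. The intervals given above still allow pulse effects of -1.11 to 2.04 log2 units for CML38 in petioles and of -1.15 to 0.32 for CML42 in blades.

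**Figure D3:**
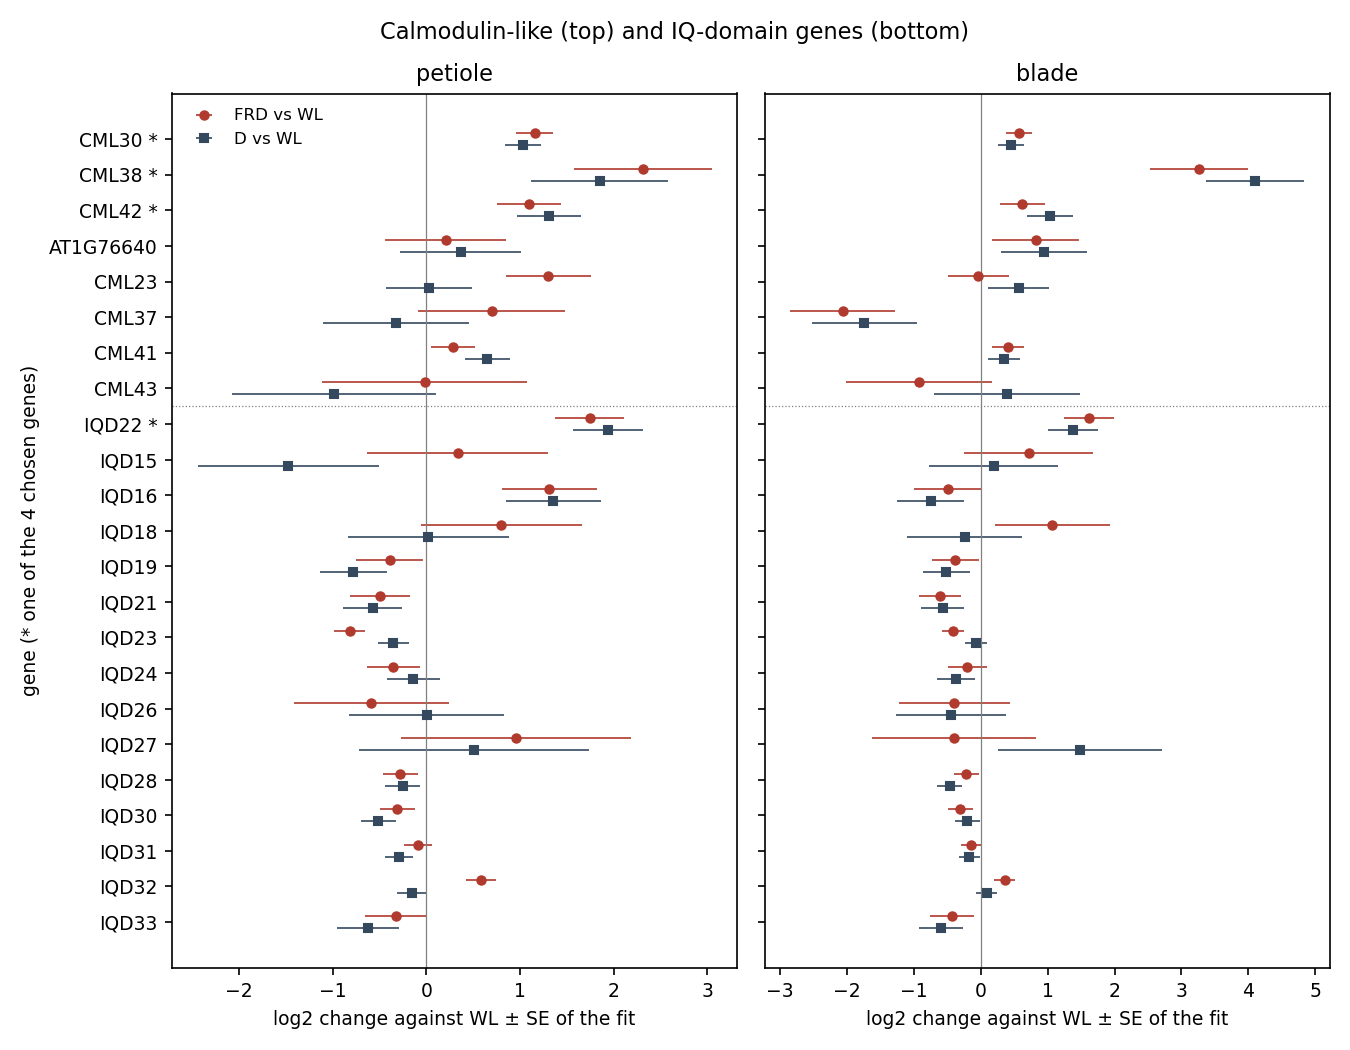
Log2 change against WL of 8 calmodulin-like genes (above the dotted line) and 15 IQ-domain genes (below it), with bars for the SE of the fit and asterisks at the 4 chosen genes. Petioles are on the left and blades on the right. IQD22, chosen as raised in darkness, stands to the right of 0 in both tissues, while most other IQ-domain genes lie between -1 and 0.

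Besides the 3 chosen ones, 5 calmodulin-like genes have a single-gene probe set in the probe annotation used here. They are CML23, CML37, CML41, CML43 and AT1G76640, which RefSeq lists as a calmodulin-like gene and places directly beside CML38 on the chromosome. None of these 5 was called in any of the 6 light comparisons by limma. The share of all probe sets called in either direction was, in petioles, 1.09% for the pulse (FRD against D), 5.6% for darkness (D against WL) and 8.31% for both (FRD against WL). In blades the shares were 0.651%, 11.2% and 11.2% in the same order. Before adjustment at most 1 of the 5 per comparison had a p under 0.05. For darkness in blades their median was 0.40, against -0.02 over all probe sets, and 4 of 5 were positive. In petioles the median for darkness was 0.03, against 0.00 over all probe sets, with 3 of 5 positive.

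CML37 had its lower values without light in blades, where CML38 is taken as chosen for its higher ones. Its ratios were 0.0943, 0.53 and 0.241 in FRD and 0.345, 0.293 and 0.233 in D, against 1.0, 1.63 and 0.538 in WL, so that no array without light reached any WL array. Of all probe sets, 13.9% lay wholly below WL in this way for FRD in blades and 13.3% for D. Its log2 changes were -2.06 ± 0.78 for FRD against WL (limma adjusted p = 0.117) and -1.74 ± 0.78 for D against WL (adjusted p = 0.191). In petioles CML37 was at 0.70 ± 0.78 and -0.33 ± 0.78 in the same 2 comparisons, with overlapping arrays. AT1G76640, the neighbour of CML38, was at 3.53, 1.61 and 1.74 in blade D arrays, against 0.855, 1.62 and 1.0 in blade WL arrays, a log2 change of 0.95 ± 0.65 with overlap (limma adjusted p = 0.433). CML23 was higher on every petiole FRD array, at 2.47, 1.79 and 2.23, than on the D arrays, at 0.809, 0.882 and 0.976. Such non-overlap was found for 7.03% of all probe sets, and the log2 change of 1.27 ± 0.46 was not called (limma adjusted p = 0.37). CML41 was at 0.65 ± 0.24 for D against WL in petioles, without overlap but not called (limma adjusted p = 0.141). CML43 had the widest error, with a SE of 1.09.

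Most of the other 14 IQ-domain genes had negative values for darkness, where IQD22 was positive. For D against WL their median log2 change was -0.27 in petioles, where 4 of 14 were positive, and -0.30 in blades, where 3 of 14 were positive. The median over all probe sets was 0.00 in petioles and -0.02 in blades, and IQD22 stood at 1.94 and 1.37. IQD22 is taken as chosen for a high petiole value in darkness, so its contrast with unchosen genes is only a description. For darkness 5.6% of all probe sets were called in petioles and 11.2% in blades. None of the 14 was called for darkness in either tissue by limma. Before adjustment 3 of them in petioles and 1 in blades had a p under 0.05. For FRD against WL the median was -0.29 in petioles and -0.34 in blades. Positive values near those of IQD22 occurred among the 14, and the next 2 genes were picked after their values were seen. IQD16 in petioles was at 3.45, 3.79 and 1.16 in FRD and at 2.67, 2.22 and 2.81 in D, against 1.01, 1.0 and 0.979 in WL. All its petiole arrays without light were above WL, by 1.31 ± 0.5 log2 units for FRD (limma adjusted p = 0.143) and 1.36 ± 0.5 for D (adjusted p = 0.147), while in blades it was at -0.49 and -0.75. IQD27 was at 1.49 ± 1.23 for D against WL in blades, with overlapping arrays (limma adjusted p = 0.536).

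In petioles 1 IQ-domain gene of the 14 was called for FRD against D, where 1.09% of all probe sets were called, and 2 for FRD against WL, where 8.31% were. In blades 0 of the 14 were called by limma in these comparisons, with 0 and 2 at a p under 0.05 before adjustment. IQD32 had ratios of 1.63, 1.74 and 1.27 in petiole FRD arrays and 1.06, 0.837 and 0.875 in D arrays, against 1.0, 1.11 and 0.957 in WL arrays. The FRD arrays lay above all others. IQD32 rose by 0.74 ± 0.16 log2 units for FRD against D (limma adjusted p = 0.0412) and by 0.59 ± 0.16 for FRD against WL (adjusted p = 0.0369), 2 values that share the FRD arrays. The first of these calls was lost without 5 of the 6 compared arrays, taken singly (adjusted p up to 0.208), and the second without 5 of 6 (adjusted p up to 0.133). IQD23 was at 0.51, 0.528 and 0.574 in petiole FRD arrays, against 1.0, 1.0 and 0.841 in WL arrays. It fell by 0.82 ± 0.17 for FRD against WL in petioles (log2 change -0.82, limma adjusted p = 0.00772), a call kept without any single compared array. With quantile normalization none of these 3 values was called (adjusted p = 0.804, 0.575 and 0.259), and with just the 6 compared arrays in the fit none was either (adjusted p = 0.335, 0.155 and 0.0525). Quantile normalization called 0.145% of all probe sets for FRD against D and 0.805% for FRD against WL in petioles. The compared arrays alone called 0.0615% and 2.59%. Aligned 75th percentiles ended the IQD32 call for FRD against WL (limma adjusted p = 0.236). That setting put the median of all probe sets at -0.31 in this comparison.

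**Figure D4:**
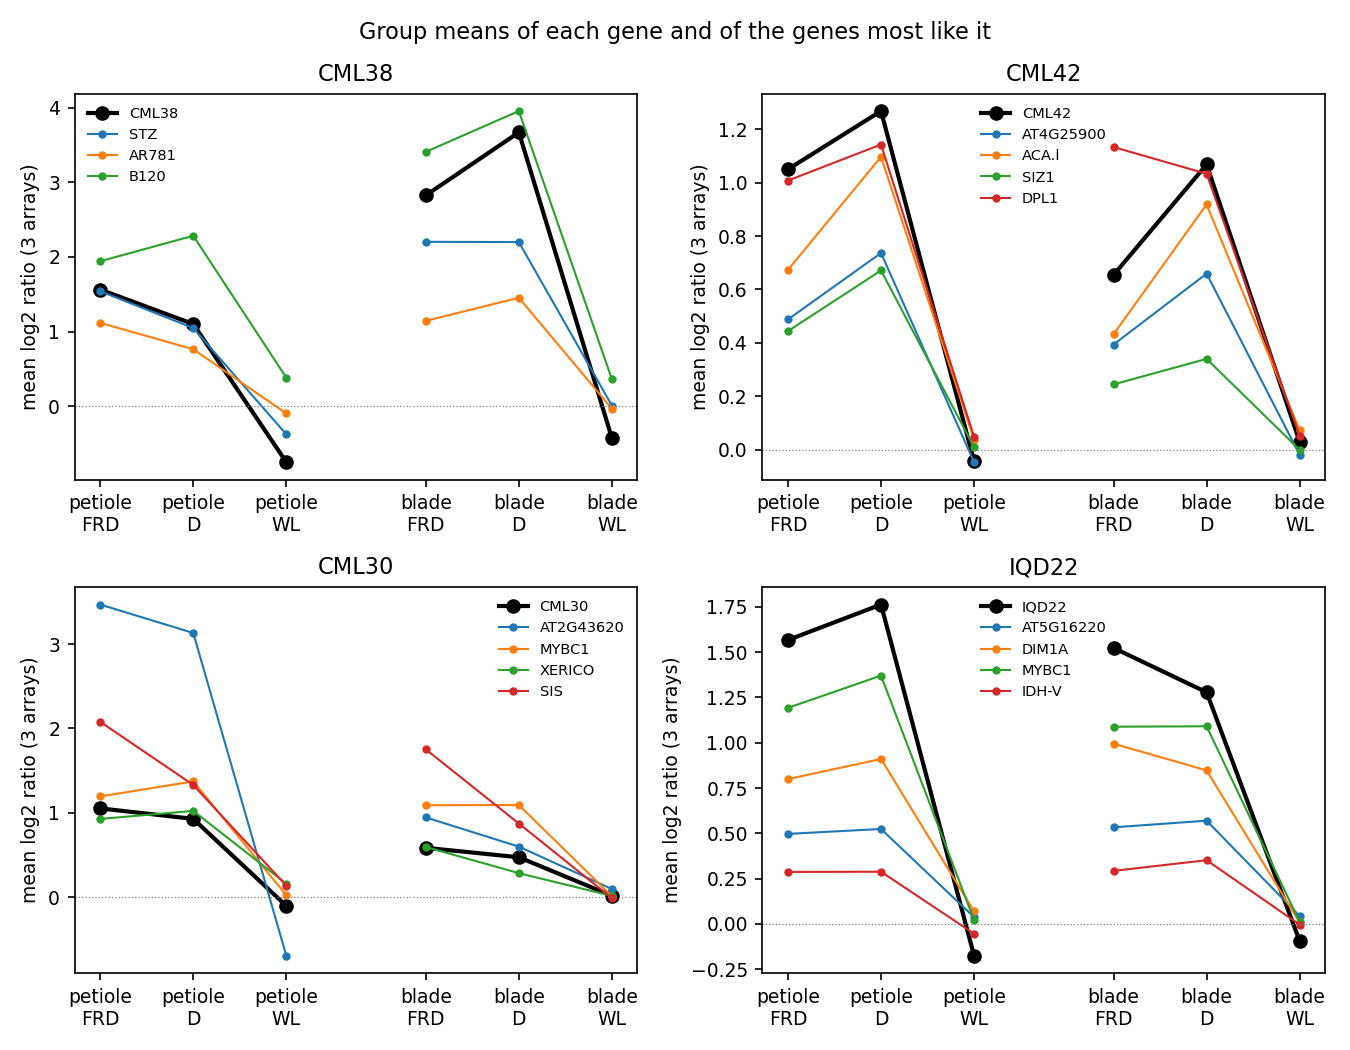
Mean log2 ratio in the 6 groups (3 arrays each) for each gene, in black, and for the genes with the most similar profile, in colour. Petiole groups are on the left of each panel. In petiole FRD and D, CML38 lies at 1.56 and 1.1 and STZ close to it at 1.54 and 1.05. In blade FRD and D, CML38 lies higher, at 2.83 and 3.67, and STZ at 2.2 in both.

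The genes whose values followed each member most closely were found by the Pearson correlation of log2 ratios over the 18 arrays. These correlations describe the profiles only, because all genes share the same arrays and the same division by WL, and the step between WL and the other groups alone gives a high value. CML38 was followed by STZ, which encodes a zinc finger repressor of stress responses (r = 0.957), AR781 (r = 0.93) and the receptor-like kinase gene B120 (r = 0.903). STZ had mean log2 ratios of 1.54 in FRD and 1.05 in D petioles, against -0.38 in WL petioles. In blades STZ had 2.2 in both FRD and D, against 0.01 in WL. CML38 had larger means there, of 2.83 in FRD and 3.67 in D, against -0.43 in WL.

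CML42 was most like AT4G25900 (r = 0.933), the gene listed as ACA.l (AT1G13210, r = 0.917), the SUMO ligase gene SIZ1 (r = 0.903) and the sphingolipid enzyme gene DPL1 (r = 0.901). CML30 was most like AT2G43620 (r = 0.923), then MYBC1 (r = 0.849), XERICO, which encodes a RING protein that raises abscisic acid (r = 0.844), and SIS (r = 0.842). IQD22 was most like AT5G16220 (r = 0.891), then the ribosomal RNA methylase gene DIM1A (r = 0.868), MYBC1 (r = 0.859) and the isocitrate dehydrogenase gene IDH-V (r = 0.851). MYBC1, a MYB-type transcription factor gene, was thus on the lists of both CML30 and IQD22. Its mean log2 ratio was 1.19 in FRD and 1.37 in D petioles, against 0.02 in WL petioles, and 1.09 in both FRD and D blades, against 0.01 in WL blades.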

How the data were processed

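RNA of 18 samples was hybridised to Affymetrix arrays after biotin labelling, per the labels' protocols. The values the authors deposited are ratios on a linear scale. For all 22810 probe sets the 3 WL arrays of a tissue have a median of exactly 1, so each probe set was divided by that median, a reading taken from the deposited values themselves. Summarization, background correction and scaling are not given in the sources used here. Array medians lay between 0.936 and 1.02.

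Control probe sets (64) were not tested, and 3 missing values stayed missing, none of them in a gene named here. The log2 of each ratio was modelled in limma 3.58.1 (R 4.3.3) with all 18 arrays (1 mean per group, 12 residual degrees of freedom, no variance trend), two-sided, with Benjamini-Hochberg adjustment within each comparison. The fit was tested on simulated data.

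The members and gene lists were chosen with earlier results of these data known. Of 10 gene lists of calcium signalling, hypoxia and wounding, matched by symbol or synonym to RefSeq (assembly TAIR10.1, matched for 13436 of 13513 single-gene probe sets), 8 had no single-gene probe set here, calmodulins included, and were not analysed. Probe sets for which the annotation gives several genes or none were left out, so an empty list does not mean that the array lacks its genes. From the other 2 lists the text names the called genes and all 5 further calmodulin-like genes. IQD16 and IQD27, not called, are named too and were picked after their values were seen. The genes most like a member are the closest single-gene probe set and the 3 closest with a symbol. Alternatives were quantile normalization, aligned 75th percentiles, a floor or pseudocount at the 10th percentile of ratios (0.553), a variance trend, and array weights. Others were the compared arrays alone, the replicate number as a block, and leaving out each compared array. Sequences are not printed, since no sequence reference was used here, and coordinates are not, since the array files name no genome build.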

Additional observations from a re-analysis of the deposited data

How the results depend on the processing

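Of the 12 member values tested, none changed sign under an alternative other than leaving out an array, and the calls changed as follows. With quantile normalization IQD22 in blades was at 1.21 for D against WL and 1.48 for FRD against WL, both no longer called. In that setting 0.703% and 0.822% of all probe sets were called in these comparisons. With aligned 75th percentiles, which shift the median of all probe sets by -0.35 for D against WL in blades and -0.29 in petioles, IQD22 for D against WL was 1.04 (adjusted p = 0.0594). With array weights CML42 for D against WL in blades was called at 1.02. The cause was not tested. Whether the replicate numbers pair the arrays is not known, and the main fit takes no account of them. Same-numbered arrays of compared groups correlated at 0.11 to 0.15 for number 3, always above arrays of other numbers. For numbers 1 and 2 they correlated below 0.1, and neither was always closest to its own number. With the replicate number as a block, 4 further values were called: CML42 in blades at 1.04 for D against WL (adjusted p = 0.00345) and 0.62 for FRD against WL (0.0418), CML30 in blades at 0.57 for FRD against WL (0.0452), and CML38 in petioles at 2.31 for FRD against WL (0.025). Leaving out 1 array gave -0.011 to 0.24 for CML30, FRD against D in blades, and -0.089 to 0.84 for CML38, FRD against D in petioles, the only tested values that changed sign; IQD22 in blades ranged over 1.27 to 1.45 for D against WL and 1.51 to 1.67 for FRD against WL. Among the 19 other list genes, calls for D against WL in blades changed to 3 from 0 with aligned 75th percentiles and to 1 with the block, where 22.1% and 14.8% of all probe sets were called, and those for FRD against WL in blades to 5 and 1, beside 20.4% and 14.9%. For D against WL in petioles they changed to 3 from 0 with aligned 75th percentiles and to 1 with array weights, with the block or with just the compared arrays, beside 12.8%, 9.99%, 8.96% and 1.13% of all probe sets. For FRD against D in petioles the single call became 0 with quantile normalization or the compared arrays alone (0.145% and 0.0615% of all probe sets called), and 0 to 1 without single arrays. For FRD against WL in petioles the 2 calls became 0 in the same 2 settings (0.805% and 2.59%) and 1 to 3 without single arrays. For the 12 member values not tested, 5 combinations of value and alternative moved by more than 1 residual SD, and all 5 became smaller. They were CML30 and IQD22 in petioles with a pseudocount, and CML30 in petioles with aligned 75th percentiles. The petiole values near 0 for FRD against D of CML30, CML42 and IQD22 took either sign without single arrays. No signal over background is known, so its limit on these genes could not be set.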

Other observations

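Arrays with the same number shared a rank in some genes but not in others. CML42 was highest on array number 3 in 5 of the 6 groups, and CML38 was highest on array number 1 in 5 of the 6. For IQD22 each of the 3 numbers was highest in 2 groups. The labels do not say what the numbers stand for, and no explanation was tested.

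Over the 18 arrays the members correlated with each other at r = 0.387 to 0.761, lowest for CML38 with CML30 and highest for CML42 with CML30. After the mean of each group was removed, r lay between -0.363 (CML38 with IQD22) and 0.337 (CML42 with CML30). These are descriptions over arrays that all genes share.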
